A study of Mus musculus with 23 samples.

Results

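The 7 genes Pkd2l1, Nkain2, Galnt13, Prr5l, Ptpru, Lpo and Fbxo32 belong to no common pathway or family, and were picked out of 35385 gene symbols because their RNA was higher in oligodendrocyte lineage cells after CRISPR targeting of Sox6. They are named and fixed by that choice, so their difference between targeted and control cells is described without a test. The open question was which of them are high in sorted oligodendrocytes (OLs), cells that played no part in the choice. Poly(A) RNA was sequenced in 23 mouse libraries of 8 groups. In the SOX6 experiment, OLs carried SOX6 guide 1, SOX6 guide 2 or a non-targeting control guide (3 libraries each), and oligodendrocyte progenitor cells (OPCs) carried SOX6 guide 1 (2 libraries), SOX6 guide 2 (3 libraries) or the control guide (3 libraries). A separate set held magnetically sorted O1+ OLs and magnetically sorted OPCs (3 libraries each), with no guide.

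All cells were OPCs made in culture from epiblast stem cells, or OLs made from those OPCs. The stem cell lines were EpiSC5 and 129O1, and their mouse strains 129SvEv and 129S1/SvImJ. The sources used here do not settle which line each library came from. Control and targeted OPCs shared 1 starting batch and carried a lentiviral CRISPRv2 vector, and 96 hours of puromycin (500 ng/mL) had removed cells without the vector. For RNA, the OPCs were kept for 60 hours in growth medium with PDGFA and bFGF. The cultures called OLs spent the same 60 hours in a differentiation-permissive medium with noggin, IGF-1, cyclic AMP and NT3 but without the thyroid hormone T3, and were not sorted. The targeted cells were pools after selection, and the edits themselves were not analysed here. Separate cultures are not stated for the libraries of a group, so a p-value reflects only how much these libraries differ, which may be technical.

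SOX6 is a transcription factor of the SOXD subgroup. It binds DNA through its HMG box and acts with partner proteins, since it has no activation or repression domain of its own. In the oligodendrocyte lineage SOXD proteins are known to hold progenitors back from terminal differentiation, which is when OPCs leave the cell cycle and begin to make myelin.

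The guide sequences are shown because every targeted group is defined by one of them. Capitals mark the 10 bases at the 3′ end of each guide, nearest to the PAM.
non-targeting guide: aagcctacttCACCGGTCGG
SOX6 guide 1: ttgacggaatGAACTGTACG
SOX6 guide 2: agaacacgctTTGAGAACCT

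Promoter sequence was available from RefSeq (GRCm38.p6) for 5 of the 7 genes, with 7 start sites between them: Galnt13, Ptpru, Nkain2 and Lpo with 1 each and Prr5l with 3. The 250 bases before each start were searched on both strands for AACAAT and for ACAAAG, hexamers with the core that SOX HMG boxes are known to prefer, which do not overlap each other here. AACAAT was in 2 of the 7 member windows, both of Prr5l, and in 9.42% of 32851 mouse windows of the same length. ACAAAG was in 1 of the 7, again of Prr5l, and in 16.5% of all. Either hexamer was in 24.0% of all windows. Windows of 3 genes are shown. The first of Prr5l holds both hexamers, in capitals (CTTTGT is ACAAAG on the other strand). Those of Nkain2 and Lpo, without either, belong to the members that lay on opposite sides in the sorted cells. A match is only a description of the letters.
Prr5l promoter, chr2:101883028-101883277, minus strand: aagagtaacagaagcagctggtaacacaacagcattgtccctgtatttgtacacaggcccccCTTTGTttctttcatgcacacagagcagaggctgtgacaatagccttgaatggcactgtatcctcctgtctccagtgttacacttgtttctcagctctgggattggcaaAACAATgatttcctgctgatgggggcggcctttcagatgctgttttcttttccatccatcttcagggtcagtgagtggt
Nkain2 promoter, chr10:32889916-32890165, minus strand: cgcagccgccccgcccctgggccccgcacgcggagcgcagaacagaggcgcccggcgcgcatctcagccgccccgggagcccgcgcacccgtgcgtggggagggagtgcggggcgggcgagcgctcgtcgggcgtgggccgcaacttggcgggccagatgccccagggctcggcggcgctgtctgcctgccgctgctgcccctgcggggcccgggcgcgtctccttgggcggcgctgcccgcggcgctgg
Lpo promoter, chr11:87826115-87826364, minus strand: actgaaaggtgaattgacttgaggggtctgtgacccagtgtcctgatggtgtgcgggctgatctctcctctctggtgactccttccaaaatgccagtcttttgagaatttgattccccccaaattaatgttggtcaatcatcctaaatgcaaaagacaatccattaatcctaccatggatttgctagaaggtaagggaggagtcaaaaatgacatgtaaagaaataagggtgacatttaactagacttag

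The Nkain2 window was 81.6% G and C, above 99.3% of all windows, with 39 CpG pairs, and the Lpo window was 42.0% G and C with 1 CpG pair. The median over all windows was 52.4%. The other windows lay at 73.6% for Galnt13, 71.2% for Ptpru and between 40.4% and 55.2% for the 3 starts of Prr5l.

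Total estimated counts per library of the SOX6 experiment were between 13124580 and 18551822. The depth behind the sorted libraries is unknown. Sox6 itself was lower in every targeted library: it read 157 to 259 CPM (counts scaled to a common library size) in targeted OLs against 387 to 437 in control OLs, and 67.4 to 88.9 CPM in targeted OPCs against 165 to 234 in control OPCs. Library B of guide 1 in OLs stood apart, with the 157 CPM of Sox6 and a chi-square per degree of freedom of 103 against library A of its group. Without it 2337 genes in place of 874 differed between targeted and control OLs. Summed TPM (a level per transcript length, scaled to one total per library) of 16 myelin genes were 26386 to 26631 in sorted OLs against 51.1 to 80.6 in sorted OPCs. In the OL cultures the sum was 1156 to 1801 in targeted libraries against 1235 to 1394 in controls, so these cultures had a small part of the myelin RNA of sorted OLs. In the OPC cultures it was 105 to 136 in targeted against 69.1 to 95.6 in control libraries, without overlap. Sox6 had 89.6 to 124 TPM in sorted OLs against 49.9 to 76.0 TPM in sorted OPCs, so it was not lower in sorted OLs. The sum of 12 progenitor markers was 2918 to 3994 TPM in targeted OLs against 4372 to 4529 in control OLs, again without overlap, and 3873 to 4133 in targeted OPCs against 3492 to 4170 in control OPCs. The listed genes did not all move together. In targeted against control OLs Sox10 (43.3 to 80.3 against 127 to 133 TPM), Olig2 and Cspg4 were lower without overlap. Pdgfra overlapped (15.4 to 37.2 against 24.0 to 32.0 TPM), and Ptprz1 had means of 921 and 1107 TPM against 940. In sorted OLs the sum of progenitor markers was 2754 to 2805 against 1954 to 2408 in sorted OPCs. Its genes differed in direction there. Pdgfra (0.148 to 1.40 against 8.91 to 15.1 TPM), Cspg4 (12.2 to 14.2 against 25.6 to 33.7), Olig2 and Ptprz1 (mean 162 against 429) were lower in sorted OLs. Sox10 was higher (439 to 571 against 24.3 to 34.3 TPM), and the remaining genes of the list were read only in the sum. Fewer cells of a type and less RNA per cell cannot be told apart in these bulk libraries. The summed level of 12 astrocyte markers, of which 11 reached 1 TPM in each OL group, was 5933 to 6835 TPM in targeted OLs against 5262 to 5728 in control OLs, and the sum of 12 neuron markers was 203 to 621 against 674 to 680. In OPCs the astrocyte sum was 873 to 1005 TPM in targeted against 718 to 828 in control libraries, and in sorted cells it was 2085 to 4154 in OLs against 585 to 655 in OPCs. The part of these cells in the results below was not tested. Microglial markers (10 genes) summed to at most 3.03 TPM in any library.

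In sorted cells Fbxo32 and Nkain2 were high in OLs, with a mean TPM 41.8 and 54.5 times that of sorted OPCs. Lpo was lower in sorted OLs, at 5.90 ± 1.68 TPM against 21.1 ± 7.37 TPM (SD, n = 3 each), and Prr5l did not pass the test. Pkd2l1, Galnt13 and Ptpru were below the filter on low values, 1 TPM in at least 3 of 6 libraries. High meant an adjusted p below 0.05 by limma on log2(TPM + 1) with at least a 2-fold difference on that scale, which understates changes of low genes. Of 11883 genes tested, 14.0% were high in this sense, 26.3% were higher at any size and 33.9% were lower in sorted OLs. The median difference over all genes tested was -0.14 on the log2(TPM + 1) scale, OLs minus OPCs. Nkain2 reached 1 TPM in 3 sorted OL and 0 sorted OPC libraries and Fbxo32 in 3 and 1, so both passed the filter through the group where they are high, and their p-values are given from a fit of all 19884 genes with no filter. There both were high (adjusted p = 0.000110 for Nkain2 and 0.000237 for Fbxo32 by limma), and Pkd2l1 (0.0910), Ptpru (0.387) and Galnt13 (0.603) did not pass. In the same fit Lpo was lower (adjusted p = 0.0119 by limma) and Prr5l did not pass (0.202). The shares above are of the 11883 genes tested with the filter, and no share from the fit with no filter is given here.

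**Figure D1:**
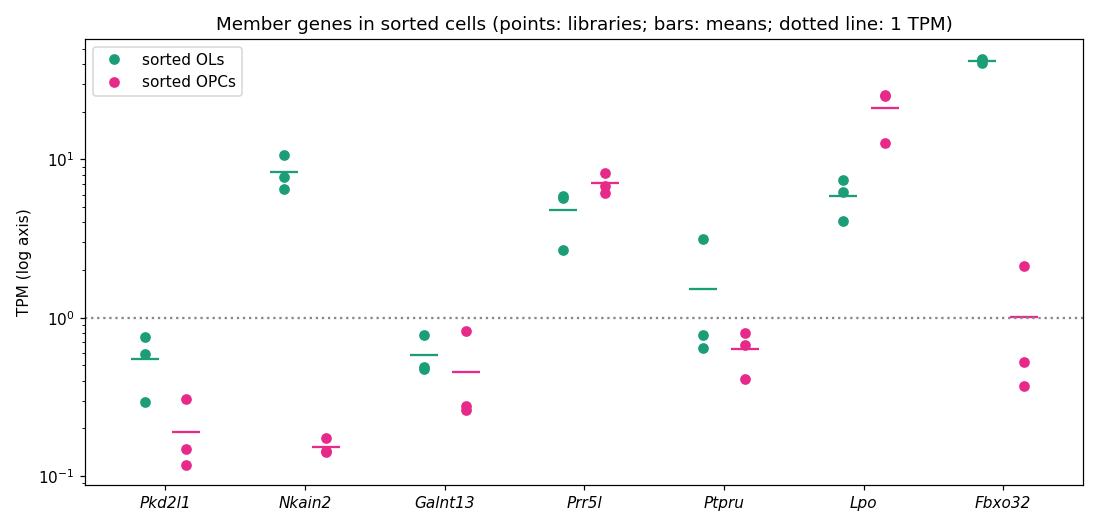
TPM of the 7 genes in sorted OLs (green, left of each pair) and sorted OPCs (pink, right), on a log axis, with a point for each of 3 libraries and a bar at the mean. All sorted OL libraries lie above the OPC libraries for Fbxo32 and Nkain2 and below them for Lpo and Prr5l, while Pkd2l1 and Galnt13 lie below the dotted line at 1 TPM in all 6 libraries.

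After SOX6 targeting Pkd2l1 had the highest log2 value of the 7 genes in both stages and Fbxo32 the lowest in OLs. In OL cultures the log2 differences of the mean of both guides minus control were 2.92 for Pkd2l1 (SE 0.136), 2.62 for Nkain2 (SE 0.147), 2.37 for Galnt13 (SE 0.1404), 2.24 for Prr5l (SE 0.188), 2.06 for Ptpru (SE 0.178), 0.92 for Lpo (SE 0.0714) and 0.38 for Fbxo32 (SE 0.115). In OPCs they were 2.15 for Pkd2l1 (SE 0.212), 1.19 for Lpo (SE 0.0593), 1.02 for Fbxo32 (SE 0.155), 0.60 for Prr5l (SE 0.167), 0.57 for Ptpru (SE 0.248), -0.27 for Nkain2 (SE 0.249) and -0.40 for Galnt13 (SE 0.415). By CPM, every targeted library lay above every control library for 6 of the 7 in OLs, beside 8.80% of all genes tested, and for Pkd2l1, Prr5l, Lpo and Fbxo32 in OPCs, beside 5.50%. These are the comparisons that chose the genes, so these values carry no test and nothing is read from their counts. The difference between the stages was not tested.

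**Figure D2:**
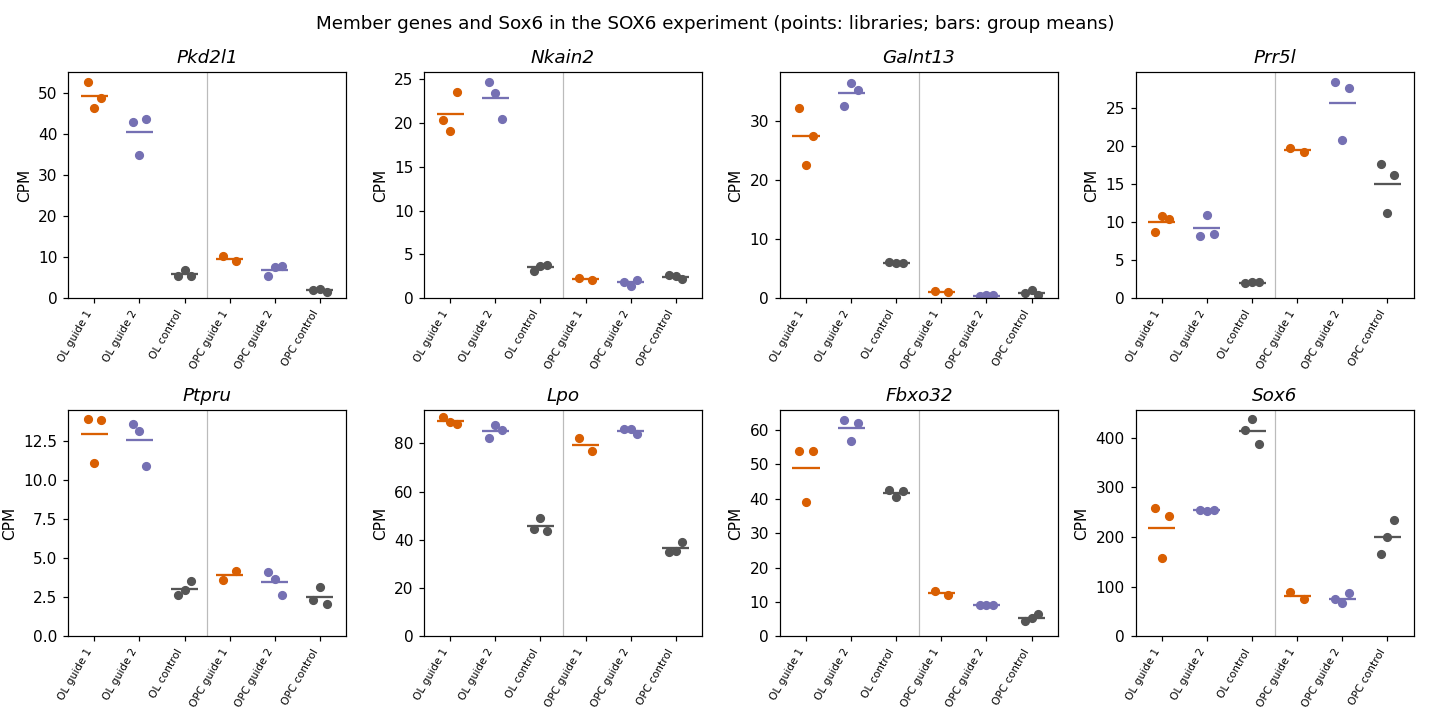
CPM of the 7 genes and of Sox6 in the 17 libraries of the SOX6 experiment, each panel with its own axis from 0. Points are libraries and bars group means, with guide 1 (orange), guide 2 (purple) and control (grey) for OLs on the left and OPCs on the right. Every targeted OL library lies above every control OL library for 6 of the 7 genes, and for Fbxo32 library B of guide 1 lies below the controls.

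The guides themselves did not enter the choice against each other, and guide 2 minus guide 1 was tested in the same fits. None of the 7 genes passed in OLs (adjusted p between 0.692 and 0.925) or in OPCs (between 0.528 and 0.898) by edgeR, and 0 genes of all tested did in either stage. At an unadjusted p below 0.05, 773 genes (5.75%) differed between guides in OLs and 1106 (8.28%) in OPCs, and by DESeq2 14 and 106 genes passed after adjustment. Galnt13 and Fbxo32 were the members under 0.05 unadjusted. In OLs guide 2 minus guide 1 was 0.33 for Galnt13 (SE 0.1401) and 0.30 for Fbxo32 (SE 0.131), and in OPCs it was -1.36 for Galnt13 (SE 0.522) and -0.50 for Fbxo32 (SE 0.181), each on the log2 scale. Both thus lay higher with guide 2 in OLs and lower with guide 2 in OPCs, without passing adjustment. In OLs library B was the lowest of guide 1 for both genes (22.6 CPM for Galnt13 and 39.1 CPM for Fbxo32). Without it the OL difference of Galnt13 was 0.21. In targeted OPCs Galnt13 had only 6 to 21 estimated counts a library.

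Control OLs against control OPCs gave the difference between media in unsorted cells. By edgeR 5 of the 7 were higher and 1 lower in control OLs, beside 21.4% and 21.6% of 14352 genes. The control libraries are those of the comparisons that chose the genes, so the choice could shift this comparison. The values and adjusted p of the 7 genes in it, here and below, are therefore descriptions, and nothing is read from their count. The stages were deposited in separate tables, so table and stage cannot be told apart.

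**Figure D3:**
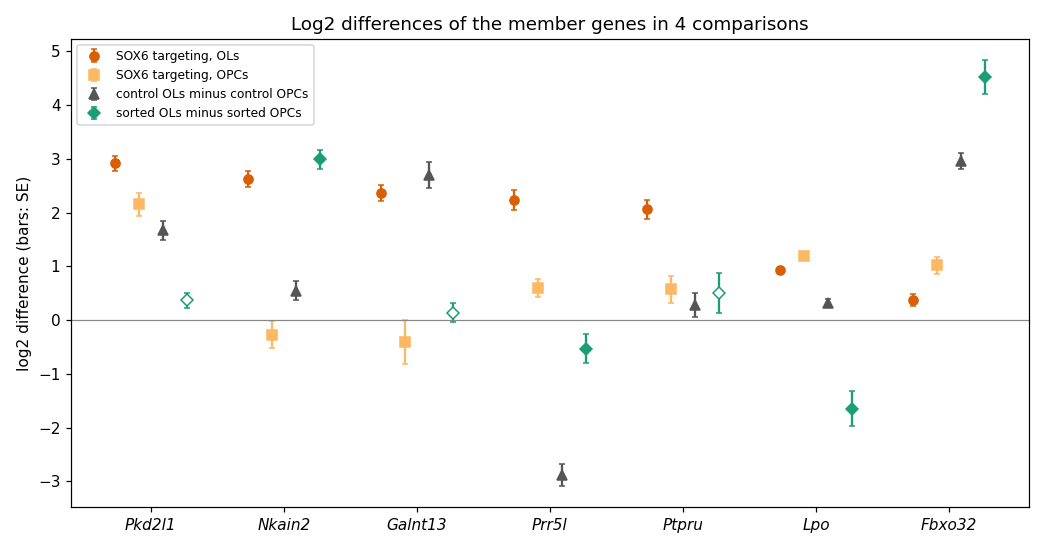
Log2 differences with their SE for the 7 genes in SOX6 targeting in OLs (orange circles) and in OPCs (light squares), control OLs minus control OPCs (grey triangles) and sorted OLs minus sorted OPCs (green diamonds, on the log2(TPM + 1) scale, open where the gene was below the filter). Lpo is above 0 in control OLs minus control OPCs at 0.32 and below 0 in the sorted cells at -1.65, while Fbxo32 is the highest of the 7 in both of these comparisons on the scales plotted.

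Pkd2l1 encodes a calcium-permeable cation channel of the polycystin family, best known from neurons that contact the cerebrospinal fluid. Its locus is chromosome 19, positions 44147637 to 44192442 on the minus strand (build GRCm38, GENCODE M21). In OLs it had 52.7, 46.4 and 48.9 CPM with guide 1, 43.0, 34.9 and 43.8 CPM with guide 2 and 5.45, 6.87 and 5.40 CPM with the control guide. In OPCs it had 10.3 and 9.02 CPM with guide 1, 5.46, 7.50 and 7.71 CPM with guide 2 and 1.94, 2.12 and 1.49 CPM with the control guide. Targeted and control libraries did not overlap in either stage. Sorted OLs had 0.761, 0.292 and 0.588 TPM, against 0.117, 0.149 and 0.305 TPM in sorted OPCs, and the groups overlapped.

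Pkd2l1 had the lowest mean of the 7 genes in sorted OLs, 0.547 TPM, at percentile 30.2 among genes above 0 there. Targeted OL cultures had 16.5 TPM with guide 1 and 14.5 TPM with guide 2 and control OL cultures 2.17 TPM. Cultures and sorted cells were quantified in separate tables, so levels set across them here and below are side by side only. Control OLs were higher than control OPCs (log2 1.67, SE 0.182, adjusted p = 3.29e-06 by edgeR). Other genes known from these neurons were low. The 7 other listed markers summed to 3.36 to 6.73 TPM in targeted OLs against 2.26 to 6.15 TPM in control OLs, Gata3 reached 0.645 TPM at most and Slc32a1 0.0834 TPM at most in the OL and OPC cultures. Relatives of each gene are given as counts beside the share of all genes that passed, which was 3.13% higher and 3.37% lower in targeted OLs and 1.95% higher and 1.63% lower in targeted OPCs (edgeR, 13447 and 13358 genes). In sorted OLs it was 26.3% higher and 33.9% lower, and the counts of relatives there are read against those shares. Those counts come from the test with the filter. Pkd1l1, Nkain3, Galnt10 and Ptprb are among the relatives that passed the filter only through the sorted group where they are high. Of 6 polycystin relatives, 4 were tested in targeted OLs and 0 passed in either direction, with a median log2 of -0.11 beside 0.00 over all genes. In sorted OLs Pkd1, a partner of polycystin channels, fell to 20.8 ± 3.13 TPM against 37.8 ± 1.90 in sorted OPCs (log2 -0.84, adjusted p = 0.00201 by limma), Pkd2 fell by 0.41 and Pkd1l1 rose by 2.00 on the log2(TPM + 1) scale.

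Nkain2 encodes a membrane protein that interacts with the sodium pump, the Na,K-ATPase. The gene spans 1201 kb of chromosome 10, positions 31689310 to 32890462 on the minus strand. OLs had 20.4, 19.1 and 23.6 CPM with guide 1, 24.7, 23.5 and 20.4 CPM with guide 2 and 3.13, 3.72 and 3.82 CPM with the control guide. The groups did not overlap in OLs. In OPCs the levels were low with every guide, between 1.36 and 2.29 CPM in targeted and between 2.12 and 2.65 CPM in control libraries, and they overlapped.

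Nkain2 is 1 of the 2 members that were high in sorted OLs. Sorted OLs had 10.7, 6.53 and 7.73 TPM, against 0.143, 0.173 and 0.142 TPM in sorted OPCs. The difference was 2.99 on the log2(TPM + 1) scale (SE 0.169, adjusted p = 0.000110 by limma with no filter), with no overlap. Targeted OL cultures were in the same range as sorted OLs, at 7.06 ± 1.80 TPM with guide 1 and 7.52 ± 0.919 TPM with guide 2 against 8.33 ± 2.16 TPM in sorted OLs (SD, n = 3 each), while control OL cultures had 1.56 ± 0.477 TPM. Nkain2 was also higher in control OLs than in control OPCs, by 0.55 on the log2 scale (SE 0.178, adjusted p = 0.0214 by edgeR). That call was lost without control OL library B or C (adjusted p = 0.0602 and 0.0674), without control OPC library C (0.0793), with no filter on counts (0.0675) and with a transcript length offset (0.0551).

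The relatives of Nkain2 differed among themselves in sorted cells. Nkain4 stood at 229.7 ± 22.8 TPM in sorted OLs against 9.12 ± 1.96 TPM in sorted OPCs (log2 4.53, adjusted p = 7.89e-06). Nkain1 and Nkain3 went the other way, at 20.1 ± 3.75 and 0.302 ± 0.0752 TPM in sorted OLs against 126.7 ± 5.07 and 3.79 ± 0.317 TPM in sorted OPCs. Nkain3 passed the filter only through sorted OPCs, so its value is a description. In targeted OLs the median log2 difference of the 9 relatives tested was 0.11, beside 0.00 over all genes.

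Galnt13 encodes an enzyme that adds the first sugar of mucin-type O-glycans, N-acetylgalactosamine, to proteins, and is known from the nervous system. Its locus is chromosome 2, positions 54436317 to 55118309 on the plus strand. OLs had 32.4, 22.6 and 27.5 CPM with guide 1, 32.7, 36.6 and 35.3 CPM with guide 2 and 6.15, 5.92 and 5.91 CPM with the control guide, without overlap. OPCs had at most 1.20 CPM in targeted and 1.37 CPM in control libraries. That is 6 to 21 estimated counts in targeted and 8 to 22 in control libraries, and the SE of the OPC difference was 0.415 on the log2 scale.

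Unlike Nkain2, Galnt13 was not high in sorted OLs. They had 0.780, 0.489 and 0.475 TPM, against 0.276, 0.262 and 0.828 TPM in sorted OPCs, and the groups overlapped through OPC library C. In control cultures it was higher in OLs than in OPCs by 2.69 on the log2 scale (SE 0.241, adjusted p = 3.94e-07 by edgeR), the second largest such difference among the 7. Targeted OL cultures had 5.09 ± 2.32 TPM with guide 1 and 8.36 ± 0.0326 TPM with guide 2, and control OL cultures 1.25 ± 0.301 TPM. Of 10 GalNAc transferases tested in targeted OLs, 3 were higher and 0 lower, with a list median of 0.15 beside 0.00 over all genes. Galnt16 was higher by 0.55 (adjusted p = 0.00574) and Galnt1 by 0.23 (adjusted p = 0.0453). Galnt14, the third, stood at 3.05 ± 1.52 TPM with guide 1 and 6.53 ± 2.38 TPM with guide 2 against 1.08 ± 0.469 TPM in control OLs (log2 2.10, SE 0.524, adjusted p = 0.0486). In OPCs 0 of 9 passed. In sorted OLs 1 of 8 was higher, Galnt2 by 0.65, and 5 were lower, beside 26.3% and 33.9% of all genes. Galnt10 (log2 -1.78) and Galnt18 (log2 -1.87) had the lowest adjusted p of these. Galnt10 passed the filter only through sorted OPCs (0.203 ± 0.0619 TPM in sorted OLs against 3.13 ± 0.501 TPM), so its value is a description.

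Prr5l encodes a protein that binds the mTOR complex containing Rictor, a kinase complex that acts on AKT and PKC. Its locus is chromosome 2, positions 101714285 to 101883027 on the minus strand. OLs had 8.74, 10.8 and 10.5 CPM with guide 1, 8.16, 11.0 and 8.39 CPM with guide 2 and 1.91, 2.08 and 2.09 CPM with the control guide. In OPCs the levels were higher throughout, with 19.8 and 19.2 CPM for guide 1, 28.5, 20.9 and 27.6 CPM for guide 2 and 17.6, 11.2 and 16.2 CPM for the control guide. No control library reached a targeted one in either stage by CPM. By TPM the OL groups of guide 1 and control did overlap (2.25, 4.68 and 8.85 against 0.592, 2.34 and 2.37), and the counts per TPM of the gene varied widely between libraries. With a length offset made from them the OL difference was 1.98 on the log2 scale.

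Control OLs had less Prr5l than control OPCs by 2.88 on the log2 scale (SE 0.205, adjusted p = 3.42e-08 by edgeR). It is the 1 member that fell with differentiation in control cultures. Sorted OLs had 5.69, 2.70 and 5.92 TPM, against 6.85, 6.10 and 8.25 TPM in sorted OPCs. Each sorted OL library was below each OPC library, but the difference of -0.53 did not pass (SE 0.266, adjusted p = 0.131 by limma). The annotation places the lincRNA Gm13905 on the opposite strand with overlapping exons. Since the kit leaves strand unmarked, reads from the pair cannot be told apart. Of the 6 other components of the complex on the list, 0 passed in targeted OLs and 0 in targeted OPCs. Rictor itself stood at 37.4 ± 4.44 TPM in sorted OLs against 5.45 ± 0.480 TPM in sorted OPCs (log2 2.57, adjusted p = 1.55e-05 by limma), the 1 of 5 tested that passed there.

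Ptpru encodes a receptor protein tyrosine phosphatase of the subfamily with a MAM domain, which is known for contacts between cells. Its locus is chromosome 4, positions 131768457 to 131838288 on the minus strand. OLs had 13.9, 11.1 and 13.8 CPM with guide 1, 13.6, 13.2 and 10.9 CPM with guide 2 and 2.67, 2.96 and 3.53 CPM with the control guide. These did not overlap. In OPCs the targeted libraries had 2.65 to 4.21 CPM and overlapped with the controls at 2.05 to 3.18 CPM. The OPC difference of 0.57 became -0.31 with a transcript length offset.

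Sorted OLs had 0.644, 0.782 and 3.16 TPM of Ptpru, against 0.672, 0.807 and 0.412 TPM in sorted OPCs. Only OL library C was above the OPCs, and the gene was below the filter. Control OLs and control OPCs gave a log2 difference of 0.28 (SE 0.222, adjusted p = 0.348 by edgeR). Among 16 receptor phosphatases tested in targeted OLs, 1 was higher and 2 were lower, with a median of 0.03 beside 0.00 over all genes. Ptpre fell to 9.69 ± 4.06 TPM with guide 1 and 14.0 ± 1.36 TPM with guide 2, against 25.9 ± 1.94 TPM in control OLs (log2 -1.10, adjusted p = 0.00367 by edgeR). Ptprj was lower by a log2 of -0.51 (adjusted p = 0.0370) and Ptprb higher by 1.05 (adjusted p = 0.0281), at 0.564 TPM or less on average. In sorted OLs Ptpre and Ptprj were high, at 77.2 ± 7.25 and 102.9 ± 11.8 TPM against 2.04 ± 0.449 and 14.5 ± 0.706 TPM in sorted OPCs. Of 14 tested there, 6 were higher and 5 lower, beside 26.3% and 33.9% of all genes. Ptprb is among the 6 and passed the filter only through sorted OLs, so its value is a description. The OPC comparison of targeting had 1 higher (Ptprm, log2 0.37) and 1 lower (Ptpre, log2 -0.60) of 15.

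Lpo encodes lactoperoxidase, a heme enzyme secreted into milk and saliva that makes antibacterial oxidants. Its locus is chromosome 11, positions 87806428 to 87828289 on the minus strand. OLs had 91.0, 88.8 and 88.1 CPM with guide 1, 82.2, 87.6 and 85.5 CPM with guide 2 and 44.4, 49.3 and 43.9 CPM with the control guide. In OPCs the values were 82.3 and 76.7 CPM with guide 1, 85.8, 86.1 and 83.9 CPM with guide 2 and 35.1, 35.5 and 39.3 CPM with the control guide. No group of targeted libraries overlapped its controls, and the targeted libraries had 82.2 to 91.0 CPM in OLs and 76.7 to 86.1 CPM in OPCs.

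Lpo was the 1 member that was lower in sorted OLs by the test. They had 4.08, 7.39 and 6.24 TPM, against 25.3, 25.4 and 12.6 TPM in sorted OPCs. The groups did not overlap and the difference was -1.65 on the log2(TPM + 1) scale (SE 0.320, adjusted p = 0.00505 by limma). OPC library C was the lowest of its group, and without it the difference was -1.97 (adjusted p = 0.00192). In control cultures Lpo was higher in OLs than in OPCs by 0.32 (SE 0.0671, adjusted p = 0.00119 by edgeR), a call lost with a length offset (0.43, adjusted p = 0.0729). By TPM these groups overlapped, at 20.1 to 31.1 in control OLs against 14.4 to 23.9 in control OPCs. The difference between these directions was not tested. Heme peroxidases other than Lpo were mostly too low, with 2 of 8 tested after targeting in each stage and 0 passing.

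Fbxo32 encodes atrogin-1, the substrate-binding subunit of an SCF ubiquitin ligase, induced by FOXO factors in wasting muscle. Its locus is chromosome 15, positions 58175879 to 58214932 on the minus strand. OLs had 54.0, 39.1 and 53.9 CPM with guide 1, 62.9, 56.9 and 62.2 CPM with guide 2 and 42.6, 40.5 and 42.4 CPM with the control guide. Guide 2 was above every control and library B of guide 1 was below, and without that library the log2 difference was 0.44 in place of 0.38. In OPCs the values were 13.2 and 12.1 CPM with guide 1, 8.99, 9.001 and 9.21 CPM with guide 2 and 4.44, 5.18 and 6.44 CPM with the control guide. Targeted and control OPC libraries did not overlap, and the log2 difference was between 0.90 and 1.18 when 1 library was left out.

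Fbxo32 had the largest log2 difference of the 7 genes between OLs and OPCs in control cultures and, on the log2(TPM + 1) scale, in sorted cells, where the ratio of mean TPM was larger for Nkain2 (54.5 against 41.8). Sorted OLs had 40.5, 42.5 and 43.0 TPM, against 0.525, 0.370 and 2.12 TPM in sorted OPCs. The difference was 4.52 on the log2(TPM + 1) scale (SE 0.322, adjusted p = 0.000237 by limma with no filter), and 4.89 without OPC library C. In control cultures OLs were higher than OPCs by 2.96 on the log2 scale (SE 0.143, adjusted p = 5.31e-10 by edgeR). Targeted OL cultures had 7.57 ± 2.33 TPM with guide 1 and 9.90 ± 0.921 TPM with guide 2, and control OL cultures 7.01 ± 0.229 TPM, all below the 42.0 ± 1.34 TPM of sorted OLs (SD, n = 3 each). Skeletal muscle markers (10 genes) summed to between 1.45 and 3.45 TPM in sorted OLs against 2.82 to 3.65 TPM in sorted OPCs.

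The transcript Gm15943, annotated as antisense with exons that overlap Fbxo32, cannot be told apart from it without strand. Of 22 F-box, FOXO and FOXO target genes tested in targeted OLs, 1 was higher and 1 lower. Cat, which encodes catalase, was higher by 0.26 (adjusted p = 0.0487), and Irs2, an adaptor of insulin signalling, was lower by a log2 of -0.72 (adjusted p = 0.00730). In OPCs 0 of 22 passed. In sorted OLs 8 of 21 were higher and 5 lower, beside 26.3% and 33.9% of all genes, with a median of 0.21 beside -0.14 over all genes. Gadd45a, a stress-induced growth arrest gene, stood at 94.95 ± 4.57 TPM in sorted OLs against 12.9 ± 2.22 TPM in sorted OPCs, and the mitophagy receptor Bnip3 at 47.0 ± 4.16 against 11.5 ± 1.88 TPM. Among the FOXO genes Foxo6 rose by 1.66, Foxo3 rose by 1.06 and Foxo1 fell by 0.35 on the log2(TPM + 1) scale. Foxo4 did not pass (-0.10).

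**Figure D4:**
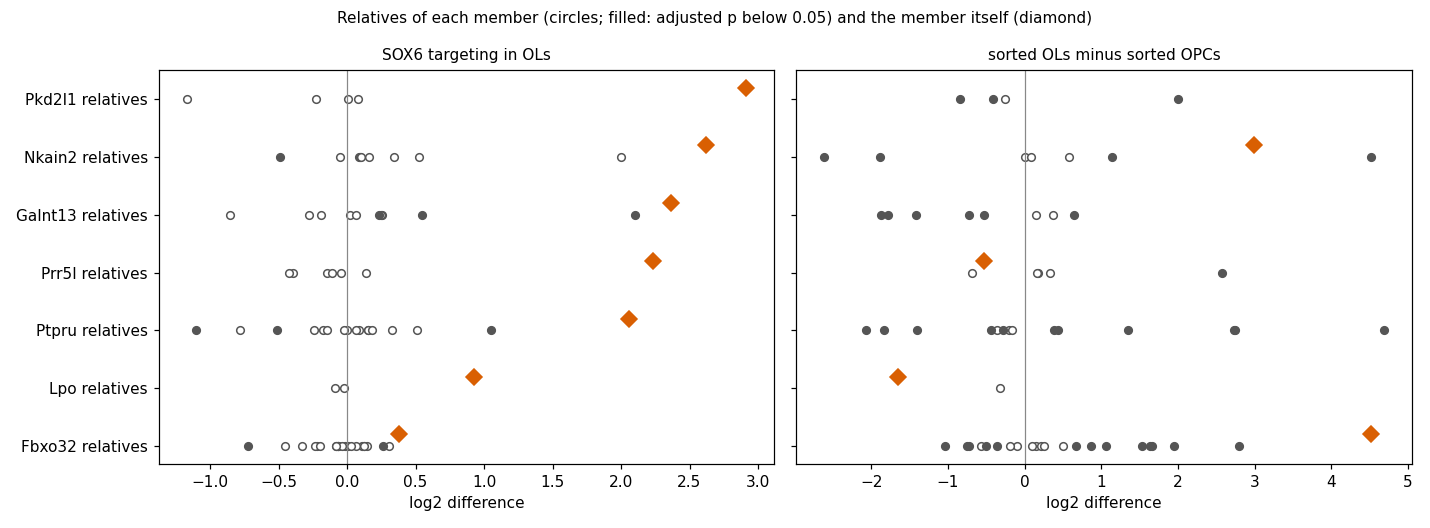
Log2 differences of the relatives of each gene (circles, filled where the adjusted p is below 0.05) and of the gene itself (orange diamond) for SOX6 targeting in OLs on the left and sorted OLs minus sorted OPCs on the right (log2(TPM + 1) scale). In targeted OLs, the comparison that helped choose the genes, every diamond lies to the right of its relatives. Galnt14 at 2.10 comes close to Galnt13 at 2.37, and Foxo6 at 0.30 closer still to Fbxo32 at 0.38.

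Set in order of their TPM in sorted OLs, the 7 genes were Fbxo32 (42.0), Nkain2 (8.33), Lpo (5.90), Prr5l (4.77), Ptpru (1.53), Galnt13 (0.581) and Pkd2l1 (0.547). Fbxo32 was above all the others in every library. Nkain2 and Lpo overlapped, as did Lpo and Prr5l, Prr5l and Ptpru, Ptpru and Galnt13, and Galnt13 and Pkd2l1. In OLs with guide 1 the order was Lpo (43.7), Pkd2l1 (16.5), Fbxo32 (7.57), Nkain2 (7.06), Prr5l (5.26), Galnt13 (5.09) and Ptpru (2.85). Lpo lay above Pkd2l1 and Pkd2l1 above Fbxo32 in every library, and the other neighbours in this order overlapped. Sorted OLs were thus below both targeted OL groups for Pkd2l1, Galnt13 and Lpo, above them for Fbxo32, and overlapped them for Nkain2, Prr5l and Ptpru.

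**Figure D5:**
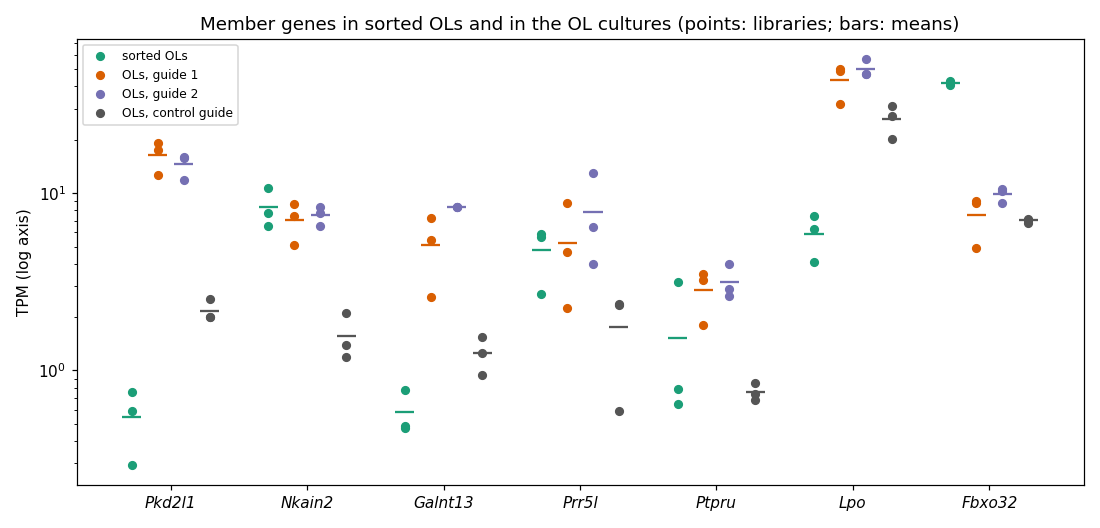
TPM of the 7 genes, on a log axis, in sorted OLs (green), OL cultures with guide 1 (orange), guide 2 (purple) and the control guide (grey). Points are libraries and bars means of 3. Sorted OLs lie with the targeted cultures for Nkain2 (8.33 against 7.06 and 7.52) and far below them for Pkd2l1 (0.547 against 16.5 and 14.5).

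The genes whose pattern was most like each member were found among 12287 genes by the root mean square difference of centred group means of log2(TPM + 1) over the 8 groups. Nearest to Nkain2 was Hs3st1, a heparan sulfate sulfotransferase, at a difference of 0.17, with 9.81 and 11.1 TPM in targeted OLs and 3.33 TPM in control OLs, and with 11.4 TPM in sorted OLs against 0.792 TPM in sorted OPCs. Cyp46a1 (0.33), which hydroxylates cholesterol, and the pseudogene Rpl30-ps9 (0.38) followed. Dock9 (0.21), Igsf11 (0.21) and Hist2h3c1 (0.22) were nearest to Fbxo32, and each of these was highest in sorted OLs. For Lpo the nearest were Klri1 (0.20), Shroom3 (0.24) and Bag3 (0.27), and Bag3, a cochaperone, stood at 4.74 TPM in sorted OLs against 22.6 TPM in sorted OPCs. Pkd2l1 had Cdh8 (0.36), Lrrtm4 (0.39) and Nnat (0.46) nearest, and Galnt13 had Galnt14 (0.31), Gabrb2 (0.33) and Carmil1 (0.40). The nearest to Prr5l were Dis3l (0.32), Tmc6 (0.33) and Slc2a9 (0.34), and to Ptpru they were Irak2 (0.14), Mdfi (0.14) and Nell1 (0.15). The differences are not scaled to how much a member varies, so they do not rank the matches of 1 member against those of another. The root mean square of a member about its own mean was 0.50 for Ptpru, 1.37 for Pkd2l1 and 1.48 for Fbxo32. These are descriptions over 8 group means that share libraries.

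The protein-coding genes that flank the 7 on either side were also read. Of 14 such neighbours, 10 were tested in targeted OLs, and 0 were higher and 3 lower, beside 3.13% and 3.37% of all genes. The 3 were Matn1, 813 kb from Ptpru (log2 -3.10), Kcnj3, 318 kb from Galnt13 (log2 -1.81), and Rprm, 351 kb from Galnt13 (log2 -0.73). Any link between them and the members was not tested. In targeted OPCs 0 of 8 tested passed in either direction, beside 1.95% higher and 1.63% lower of all genes. In sorted OLs 3 of 10 were higher and 2 lower, beside 26.3% and 33.9% of all genes.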

How the data were processed

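For the 17 libraries of the SOX6 experiment the authors deposited estimated counts, and for all 23 libraries they deposited TPM. Per the submitters' processing notes, Salmon 0.14.1 and DESeq2 were used, with build mm10. Among the sorted values 26 names that are dates were left out. No column of other samples was present.

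Estimated counts were rounded, filtered with filterByExpr (minimum count 10, total 15), scaled by TMM and put to the quasi-likelihood test of edgeR (4.0.16, under R 4.3.3), two-sided, with 1 coefficient per group. P-values were adjusted by Benjamini-Hochberg over all genes, with a threshold of 0.05. OPCs and OLs were fitted alone, and control OLs minus control OPCs came from a fit of all 17 libraries. CPM are from those 17 libraries together. For the sorted libraries limma 3.58.1 was used on log2(TPM + 1), keeping genes of at least 1 TPM in at least 3 of 6 libraries, and a fit with no filter gave the p-values of Nkain2 and Fbxo32. The scripts were tested on simulated data. Column letters name libraries only.

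The members, lists and tests were chosen with earlier results of these data known. Named genes are the 7 members, Sox6, for each member the 3 genes of most similar pattern, relatives that passed (up to 4 a list by adjusted p), and markers. Flanking genes named were chosen after their values were seen, as were relatives beyond these. Some single-gene results that this rule allows are not reported here. The kit is a poly(A) kit, per the labels' protocols, without strand marking. Alternatives were RLE scaling, no filter, a transcript length offset, DESeq2 1.42.0, both stages in 1 fit, other pseudocounts (0.1 and 5), median centring and leaving out each library.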

Additional observations from a re-analysis of the deposited data

Results flagged for a closer look

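Lpo lay on opposite sides in the 2 comparisons of OLs with OPCs. The log2 difference was -1.65 in sorted cells, on the log2(TPM + 1) scale, and every sorted OL library (4.08 to 7.39 TPM) lay below every sorted OPC library (12.6 to 25.4 TPM). In control cultures it was 0.32, and every OL library (43.9 to 49.3 CPM) lay above every OPC library (35.1 to 39.3 CPM). By TPM, the unit of the sorted values, control OLs (20.1 to 31.1) and control OPCs (14.4 to 23.9) overlapped, and with a transcript length offset the culture difference was 0.43 and did not pass (adjusted p = 0.0729 by edgeR). The difference between the pair was not tested, and sorted cells and cultures were deposited in separate tables.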

How the results depend on the processing

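Counts of all genes past the threshold moved with the settings. For SOX6 targeting in OPCs (479 genes), they were 239 with a transcript length offset, 787 with DESeq2, 254 with both stages in 1 fit, and 149 to 550 when a library was left out. For OLs (874 genes), they were 582 with the length offset, 1358 with DESeq2, 1604 with both stages in 1 fit, and 353 to 2337 when a library was left out, the highest without library B of guide 1. Between guides (0 genes in either stage), there were 31 with no count filter and 106 with DESeq2 in OPCs, 14 with DESeq2 in OLs, and 0 to 26 in OPCs and 0 to 1 in OLs when a library was left out. No member passed between guides under any of these. Control OLs against control OPCs stayed within 1.5 times of 6178, and sorted OLs against sorted OPCs within 1.5 times of 7146. The 2 members high in sorted OLs stayed 2 with other pseudocounts, no filter, median centring and without any 1 sorted OPC library, and became 1 without any 1 sorted OL library, because Nkain2 then had too few libraries at 1 TPM to be tested. The calls of Sox6 in OLs were lost with the length offset and without control library A or B. No called result changed sign. No paired analysis was possible because the column letters match no replicate number of the labels. Depth was lowest for Galnt13 in OPCs, with 6 to 22 estimated counts a library.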
